A study of Mus musculus with 24 samples.

Results

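Primary precursor B-cell leukaemias of Blnk knockout mice with a LAP transgene were set against those of Blnk knockout mice without it. The comparison took every tumour titled LAP/Blnk preB-ALL (n = 3) and every tumour titled Blnk preB-ALL (n = 5), 8 of the 24 mouse samples of the series. Both groups carry the homozygous Blnk knockout, so the transgene is the labelled difference between them. LAP is the activating isoform of C/EBPβ, which the gene Cebpb encodes. The remaining samples were 4 preB-ALL and 4 B-ALL of mice with the LAP transgene and no Blnk knockout in their labels, and BKO408, a preB-ALL line from Blnk knockout mice grown with IL-7, without (n = 4) and with a LAP retrovirus (n = 4). The sources used here do not give the promoter that drives the transgene, the strain, the age and sex of the animals, the tissue sampled or its share of tumour cells. The labels do not say that the tumours of a group came from separate animals, and every p-value then measures the spread between these samples, which may be technical.

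BLNK, also called SLP-65, is the adaptor through which the pre-B-cell receptor and the kinase Syk reach Btk and phospholipase Cγ2. Pre-B cells that lack it are held back in differentiation, and Blnk knockout mice are known to develop pre-B-cell leukaemia. C/EBPβ is a basic leucine zipper transcription factor of myeloid cells, adipocytes and hepatocytes, and its forced expression in B-lineage cells is known to turn on myeloid genes. The comparison asked what the transgene adds in leukaemias that already lack the adaptor.

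RNA was measured on Affymetrix arrays, and 17097 genes were compared. Each value is a log2 ratio to the median of the 16 tumours, so a value of 0 is the middle tumour for that gene and no level of expression was kept. No source used here states the base of the logarithm, which was taken as 2. The median SD of a gene was 0.157 among LAP/Blnk tumours and 0.207 among Blnk tumours. Pearson correlations over all genes ran from 0.34 to 0.52 between pairs of LAP/Blnk tumours, from -0.23 to 0.29 between pairs of Blnk tumours and from -0.06 to 0.40 across the groups. The LAP/Blnk tumours were thus closer to each other than the Blnk tumours were, as a description of these arrays. Blnk tumour 5 stood apart in genes of other cell types, with a median of 2.98 over 18 granulocyte genes against -0.67 to 0.01 in Blnk tumours 1 to 4, and the list medians below are also given without it where that moved them by over 1.5 times. The number of arrays limits the precision.

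Cebpb and Blnk were read first as a check of the labels. The Cebpb probe set with the widest spread, 1427844_PM_a_at, was at 0.51, -0.03 and 0.27 in LAP/Blnk tumours 1 to 3, against -3.99, -3.33, -3.19, -4.50 and -1.94 in Blnk tumours 1 to 5. Every LAP/Blnk tumour thus lay above every Blnk tumour, by a mean of 3.64 (exact permutation p = 0.0179, two-sided, the smallest that 3 against 5 samples allow, and 0.0714 adjusted over 4 probe sets of Cebpb and Blnk). The other Cebpb probe sets overlapped, with differences of 0.38 and -0.42 (exact p = 0.0714 and 0.643). The probe set of Blnk was at 0.42, 0.52 and 1.23 in LAP/Blnk tumours, against -0.53, -0.68, 0.94, -0.17 and -0.55 in Blnk tumours, and Blnk tumour 3 overlapped the other group (difference 0.92, exact p = 0.107). Both groups are labelled as knockouts, and no source used here says which part of the gene was deleted, so this probe set checks nothing about the knockout. Blnk lies on chromosome 19, whose genes as a set lay higher in LAP/Blnk tumours, as described below. LAP B-ALL 4, which enters the centring, the estimate of the spread and the correlations over 16 tumours, had Cebpb at -3.11, within the range of the Blnk tumours and against its label.

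Of 17097 genes, 3 passed limma's test between the groups (adjusted p under 0.05, Benjamini-Hochberg over all genes; 0.0175% of the genes tested), and all 3 were higher in LAP/Blnk tumours. They were Fgf12, an intracellular fibroblast growth factor homologue that binds voltage-gated sodium channels and is best known from neurons, B3galt1, a β-1,3-galactosyltransferase of the Golgi, and Shoc2, a leucine-rich repeat scaffold that brings a phosphatase to RAF kinases. At an unadjusted p under 0.05 there were 989 genes, 492 higher and 497 lower. If no gene differed, a share of about 0.05 of the 17097 genes would pass that limit. The test shared its estimate of the spread across all 16 tumours. Groups did not overlap at all in 457 genes that were higher (2.67%) and in 460 that were lower (2.69%) in LAP/Blnk tumours, and these shares are the background for every count of such genes below. In random order, 1 of 56 orderings (a share of 0.0179) would separate a gene in each direction. Outside chromosome 19 the shares were 1.83% upward, near that rate, and 2.73% downward. A gene that separated the groups is therefore given as a value and not as a changed gene. Over all genes 44.5% had a positive difference.

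For Fgf12, LAP/Blnk tumours 1 to 3 had 3.16, 3.35 and 3.97, against 0.05, -0.01, -0.17, -0.09 and -0.02 in Blnk tumours 1 to 5. The Blnk tumours were close together and the LAP/Blnk tumours far above them. Fgf12 rose by 3.54 ± 0.41 (SE), 11.6-fold, with a limma adjusted p of 0.0112. Its other probe sets also did not overlap, with differences of 2.26 and 1.00, so the 3 probe sets differed in size and not in direction. Tumours with the transgene and no Blnk knockout label were mostly low, with LAP preB-ALL 1 to 4 at 2.42, 0.11, 0.70 and -0.06 and the LAP B-ALL between -0.12 and 0.01. In BKO408 cells the difference of Fgf12 with LAP was 0.03 ± 0.04 (SE, n = 4 and 4, limma adjusted p = 0.631).

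B3galt1 was at 0.95, 1.59 and 1.85 in LAP/Blnk tumours, against -0.62, -0.74, -0.77, -0.96 and -0.67 in Blnk tumours. All Blnk tumours were below the middle tumour and all LAP/Blnk tumours above it. B3galt1 rose by 2.22 ± 0.27 (4.65-fold, limma adjusted p = 0.0112). All 4 of its probe sets separated the groups, with differences of 0.86, 1.09, 1.14 and 2.22. The LAP preB-ALL lay between the groups at 0.43, 0.04, -0.04 and 0.12. LAP B-ALL were at 0.55, 0.34, -0.25 and -0.87, the last within the range of the Blnk tumours. Without LAP/Blnk tumour 2 the difference of B3galt1 was 2.16 and no longer passed (limma adjusted p = 0.0579).

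Shoc2 was at 1.01, 1.03 and 0.83 in LAP/Blnk tumours, against -0.16, -0.15, 0.20, 0.44 and 0.10 in Blnk tumours. The groups did not overlap, and the other 8 tumours lay between -0.14 and 0.14. Shoc2 rose by 0.87 ± 0.12 (1.82-fold, limma adjusted p = 0.0353). Its second probe set gave 0.50 and overlapped through Blnk tumour 4. Shoc2 lies on chromosome 19. Its call was lost without LAP/Blnk tumour 1 (0.84) or 2 (0.83), and without Blnk tumour 1 (0.80), 2 (0.81), 3 (0.89) or 5 (0.87), with limma adjusted p from 0.0519 to 0.115. The 3 measured genes on either side of Shoc2 had differences from -0.31 to -0.05.

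Relatives of the 3 genes were read from lists. Of 9 FGF homologous factors and FGF receptors measured, Fgf12 passed, and the other 8 had differences from -0.26 to 0.34, none without overlap. Of 7 β-1,3-galactosyltransferases, B3galt1 passed and the other 6 ranged from -0.42 to 0.07, again all with overlapping groups. In the RAS-ERK pathway 21 of 28 genes were measured, with a median difference of -0.01 against -0.02 over all genes, and of 0.0018 without Blnk tumour 5. Of these Shoc2 passed, and Ppp1ca, a catalytic subunit of the phosphatase that Shoc2 recruits, was also higher in every LAP/Blnk tumour (0.58 ± 0.17, limma adjusted p = 0.461). Ppp1ca lies on chromosome 19 too.

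The genes most like the 3 across the 16 tumours were found by Pearson correlation, as a description with no test. Fgf12 went with Robo3, an axon guidance receptor (r = 0.94), Sfxn4, a mitochondrial sideroflexin (0.89), and Prnd, a prion-like gene (0.88). B3galt1 went with Fgf12 itself (0.85), the mitochondrial carrier Slc25a45 (0.84) and Prnd (0.81). Shoc2 went with Ccdc186 (0.92), the collagen Col15a1 (0.89) and the cohesin subunit Stag1 (0.89). Sfxn4, Slc25a45 and Ccdc186 lie on chromosome 19. All of these genes but Stag1 separated the groups, and the same 3 high tumours enter each of the correlations.

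Neighbours on the chromosome were read to see whether a high gene stood alone. Stk39, a stress kinase and the next measured gene after B3galt1, was at 0.67, 0.97 and 0.71 in LAP/Blnk tumours, against -1.32, -0.86, 0.12, -1.37 and -0.47 in Blnk tumours. The groups did not overlap, with a difference of 1.56 ± 0.49 that did not pass (limma adjusted p = 0.527). Near Fgf12, the next measured genes Mb21d2 and Plaat1 differed by 0.12 and 0.15 with overlap, while Atp13a5 after them differed by 1.97. None of the 3 measured genes on either side of Robo3 separated the groups. By Mirt1, on chromosome 19, 4 of 6 did, among them Smc3, a cohesin subunit (0.84), and Add3, a membrane skeleton protein (1.03). Next to Cldn10 and Plac8, Dzip1 (-1.21) and Coq2 (-0.60) lay lower without overlap. Cbr3, next to Cbr1 and like it a carbonyl reductase gene, was lower by 1.04 without overlap. In all, 126 places beside 21 genes were read, and 16 of them held a gene that separated the groups. Over all genes 2.67% separated upward and 2.69% downward. The 16 places include Fgf12 and Atp13a5, each counted beside the other and both picked because they separated the groups. They also include 4 places by Mirt1 and 1 by Shoc2, on chromosome 19. The neighbours named here were picked from the 126 places after their values were seen, and none of them passed.

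**Figure D1:**
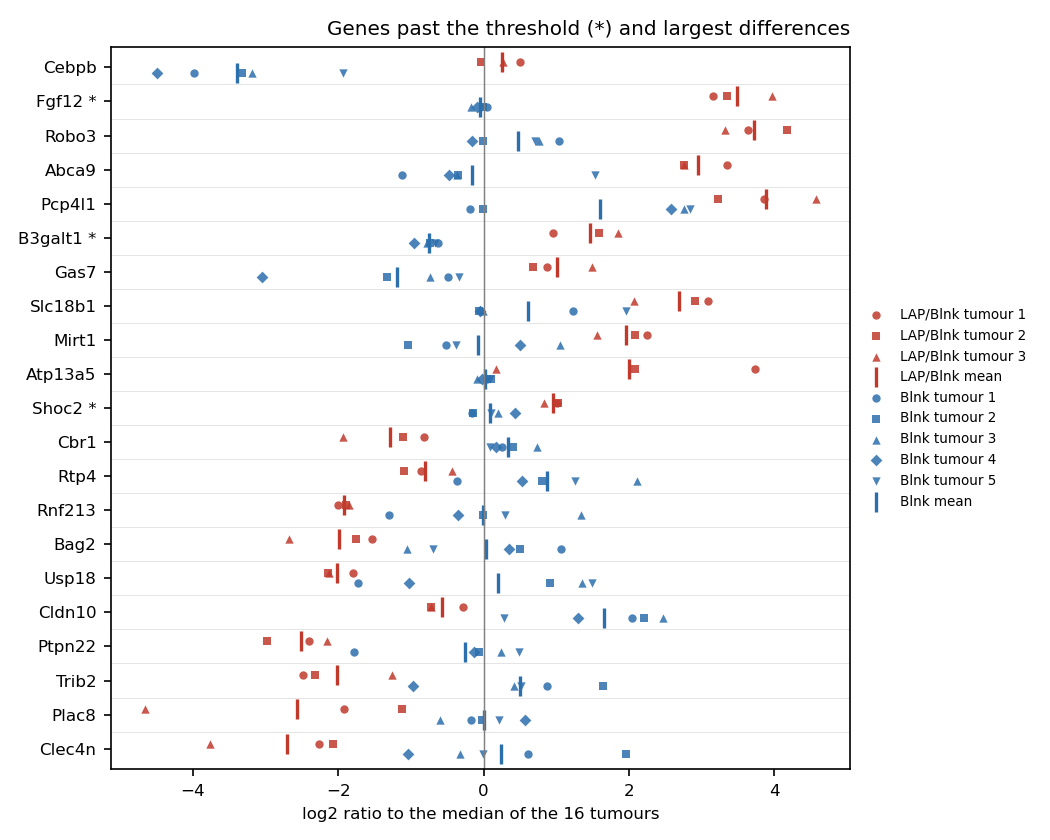
Log2 ratio to the median of the 16 tumours (x axis) of the 3 genes past the threshold (marked *) and of the 10 largest positive and 10 largest negative differences without overlap at an unadjusted p under 0.05 (y axis), one symbol per LAP/Blnk (red) or Blnk (blue) tumour and a vertical bar for each group's mean. Fgf12 and B3galt1 show tight Blnk tumours and a wide gap, whereas Pcp4l1, Usp18 and Rtp4 show groups that nearly touch.

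Among named genes with an unadjusted p under 0.05, the largest differences upward that kept the groups apart were, besides Cebpb, Fgf12 and B3galt1, those of Robo3, Abca9, Pcp4l1, Gas7, Slc18b1, Mirt1 and Atp13a5. None of these 7 passed over all genes, with adjusted p from 0.0687 to 0.411, so they are given as values. Robo3 was at 3.65, 4.18 and 3.33 in LAP/Blnk tumours, against 1.05, -0.0041, 0.76, -0.16 and 0.70 in Blnk tumours, a difference of 3.25 ± 0.53 (limma adjusted p = 0.0687). LAP preB-ALL 1, the tumour that was also high in Fgf12, had Robo3 at 2.58, and the other 3 LAP preB-ALL lay between -0.33 and 0.0041. Abca9, an ABC transporter gene, was at 3.35, 2.76 and 2.77 against -1.12, -0.35, -0.36, -0.48 and 1.53. Blnk tumour 5 was the highest of its group there. Gas7, a cytoskeletal adaptor, differed by 2.20 ± 0.59, and 4 of its 5 probe sets separated the groups.

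Pcp4l1, a relative of a calmodulin-binding protein of Purkinje cells, split the Blnk tumours. Blnk tumours 1 and 2 had -0.18 and -0.01, Blnk tumours 3 to 5 had 2.76, 2.58 and 2.85, and LAP/Blnk tumours had 3.86, 3.23 and 4.58. The 8 tumours with no Blnk knockout label were all between -0.42 and 0.21, so high values occurred in 6 of the 8 Blnk knockout tumours. Slc18b1, a vesicular polyamine transporter, had 3.09, 2.91 and 2.07 in the LAP/Blnk group and reached 1.23 and 1.96 in Blnk tumours 1 and 5. Atp13a5, a P-type ATPase, varied widely among LAP/Blnk tumours, at 3.74, 2.08 and 0.17. LAP/Blnk tumour 3 exceeded the highest Blnk tumour (0.10) by little, and without that tumour Atp13a5 passed (2.89, limma adjusted p = 0.00166). Mirt1, a long non-coding RNA gene of chromosome 19, was at 2.24, 2.08 and 1.57 against -0.51, -1.05, 1.05, 0.51 and -0.37.

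Downward, under the same limit, Clec4n had the largest difference without overlap. It encodes dectin-2, a lectin receptor of myeloid cells, and was at -2.27, -2.07 and -3.77 in LAP/Blnk tumours against 0.61, 1.96, -0.32, -1.04 and -0.01 in Blnk tumours (-2.94 ± 0.67, limma adjusted p = 0.235). Both of its probe sets separated the groups. Plac8 was at -1.93, -1.13 and -4.67 against -0.17, -0.02, -0.60, 0.57 and 0.22, with LAP/Blnk tumour 3 far below the others. Ptpn22, a phosphatase that restrains antigen receptor signalling, was at -2.41, -2.98 and -2.15 in LAP/Blnk tumours. Blnk tumour 1 was nearly as low in Ptpn22, at -1.78, and the other Blnk tumours lay between -0.14 and 0.49.

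The remaining large negative differences under that limit were those of Trib2, Cldn10, Usp18, Bag2, Rnf213, Rtp4 and Cbr1, with differences from -2.52 to -1.62, none past the threshold. Cldn10, a tight junction claudin, was at -0.28, -0.73 and -0.72 in LAP/Blnk tumours, against 2.04, 2.21, 2.47, 1.30 and 0.28 in Blnk tumours. Bag2, a co-chaperone of HSP70, was at -1.53, -1.76 and -2.68 against 1.07, 0.51, -1.05, 0.35 and -0.70. Cbr1, which reduces carbonyl compounds, was at -0.82, -1.11 and -1.94 against 0.25, 0.41, 0.73, 0.17 and 0.09. Cbr1 separated the groups by the tight Blnk tumours, while Bag2 spread widely within them. Rnf213, a ubiquitin ligase, separated the groups with 1 of its 2 probe sets (-1.91 and -0.05). Usp18, Rtp4 and Trib2 belong to groups described next.

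Type I interferon response genes lay lower in LAP/Blnk tumours. Interferon receptors signal through JAK kinases to a STAT and IRF9 complex, which binds an element in the promoters of antiviral genes. Of 30 genes in the list 25 were measured, and all 25 had a negative difference, with a median of -1.10 against -0.02 over all genes. None passed the test over all genes, with a smallest limma adjusted p of 0.366. In 9 of the 25 the groups did not overlap, which is 36.0% of the list against 2.69% of all genes. The list was made with earlier results of these data known, so its direction is a description.

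**Figure D2:**
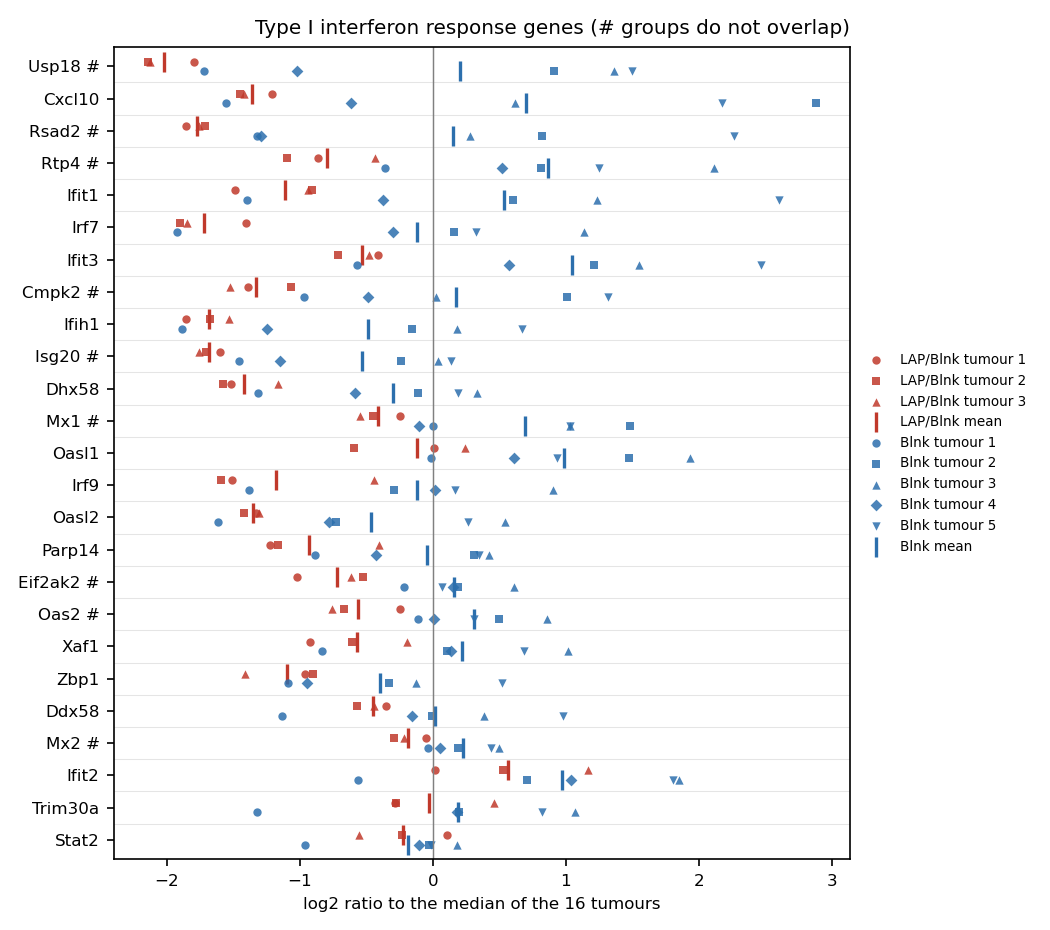
Log2 ratio to the median of the 16 tumours (x axis) for the 25 measured type I interferon response genes (y axis, ordered by difference), one symbol per LAP/Blnk (red) or Blnk (blue) tumour and a vertical bar for each group's mean, with # for genes whose groups do not overlap. The LAP/Blnk tumours sit together on the left, and Blnk tumour 1 (blue circles) lies beside them in most genes.

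The separation depended on which Blnk tumour was looked at. The median of the list was -1.02, -0.91 and -0.62 in LAP/Blnk tumours, against -1.09, 0.20, 0.61, -0.16 and 0.69 in Blnk tumours 1 to 5. Blnk tumour 1 was therefore as low as the LAP/Blnk tumours, and the others lay higher. Without Blnk tumour 1, 20 of 25 genes did not overlap, against 4.12% of all genes then. That tumour was singled out by its low values in these same genes, so a rise follows from the choice. Without Blnk tumour 2, 3 or 4 it was 9 of 25 each time, against 3.49%, 4.08% and 4.01% of all genes. Without Blnk tumour 5, the one high in markers of other cells, the median difference was -0.99, and 9 of 25 genes did not overlap, against 4.91% of all genes then. In bulk samples, fewer cells of a type and less RNA per cell cannot be told apart.

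Usp18, the protease that removes ISG15 from proteins and damps interferon receptor signalling, was at -1.79, -2.15 and -2.13 in LAP/Blnk tumours, against -1.72, 0.91, 1.36, -1.02 and 1.49 in Blnk tumours. Blnk tumour 1 lay just above the LAP/Blnk tumours and tumours 2, 3 and 5 far above. Rsad2, the antiviral enzyme viperin, was at -1.86, -1.71 and -1.76 against -1.33, 0.82, 0.28, -1.29 and 2.27, and Blnk tumours 1 and 4 were its low ones (-1.93 ± 1.28). Rtp4, an interferon-induced receptor transporter protein, was at -0.86, -1.10 and -0.43 against -0.36, 0.81, 2.11, 0.52 and 1.25. Eif2ak2, the double-stranded RNA kinase PKR, was at -1.02, -0.52 and -0.62 against -0.22, 0.19, 0.61, 0.15 and 0.07, so its Blnk tumours stayed closer together. The others without overlap were the nucleotide kinase Cmpk2 (-1.50), the exonuclease Isg20 (-1.15), the GTPases Mx1 (-1.11) and Mx2 (-0.42), and the oligoadenylate synthetase Oas2 (-0.87). Cxcl10, an interferon-induced chemokine, differed by -2.06 and overlapped through Blnk tumour 1.

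Of 10 interferon-inducible GTPases measured, which act on vacuoles of intracellular pathogens, 8 had a negative difference, with a median of -0.68. Their median was -0.90, -1.13 and -1.22 in LAP/Blnk tumours, against -1.19, -0.37, -0.15, -0.37 and 0.47 in Blnk tumours, with Blnk tumour 1 again among the LAP/Blnk values. Without Blnk tumour 5 the median difference of the GTPases was -0.44. Ifi47 alone separated the groups, at -1.72, -1.74 and -1.47 against -0.70, 0.11, -0.11, -0.38 and 0.58. The 19 genes of interferon sensing and signalling, receptors, JAK kinases and nucleic acid sensors among them, had a median of -0.14, and -0.03 without Blnk tumour 5, and none separated the groups.

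Promoters are shown for 2 of the separated interferon genes, because the response element that the pathway uses can be read in them, and for Plac8, because 1 of its windows held the C/EBP letters. Of the 21 genes past the threshold or with the largest differences, 17 had a window and Plac8 alone of these had a match. Sequences are RefSeq windows of 300 bases around the start of the gene in GRCm38.p6, 5′ to 3′ on the gene's strand. In Rsad2 (chr12:26456403-26456702, minus strand) and Eif2ak2 (chr17:78882523-78882822, minus strand) capitals mark GAAANNGAAA or its reverse complement, the core of an interferon-stimulated response element. In Plac8 (chr5:100563047-100563346, minus strand) they mark TTGCNNAA or its reverse complement, a C/EBP site.
Rsad2: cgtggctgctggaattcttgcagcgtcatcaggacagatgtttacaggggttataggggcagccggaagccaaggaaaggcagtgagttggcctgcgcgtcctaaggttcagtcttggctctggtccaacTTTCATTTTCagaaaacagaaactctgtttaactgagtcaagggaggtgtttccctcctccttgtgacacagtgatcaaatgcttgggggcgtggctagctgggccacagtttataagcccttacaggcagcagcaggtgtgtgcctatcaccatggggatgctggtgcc
Eif2ak2: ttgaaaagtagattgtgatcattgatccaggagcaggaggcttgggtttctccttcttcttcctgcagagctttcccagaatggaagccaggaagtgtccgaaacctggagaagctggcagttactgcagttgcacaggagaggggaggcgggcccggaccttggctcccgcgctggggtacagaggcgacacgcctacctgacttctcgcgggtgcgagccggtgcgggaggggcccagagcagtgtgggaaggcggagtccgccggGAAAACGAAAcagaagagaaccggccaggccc
Plac8: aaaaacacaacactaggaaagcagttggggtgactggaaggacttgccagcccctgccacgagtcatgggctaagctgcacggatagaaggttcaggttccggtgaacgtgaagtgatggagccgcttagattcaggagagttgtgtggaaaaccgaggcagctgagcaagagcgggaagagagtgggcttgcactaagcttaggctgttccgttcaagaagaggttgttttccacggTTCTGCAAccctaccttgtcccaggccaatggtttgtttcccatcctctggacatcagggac
The interferon element occurred in 10 of 22 windows (45.5%) of the type I interferon genes, 9 of 17 genes with a window, against 1131 of 32851 windows of all genes (3.44%). Of the 9 interferon genes whose groups did not overlap, 4 had a window (6 windows), and 2 of these windows held the element. The C/EBP letters were in 3547 of all windows (10.8%), in none of the 8 windows of Fgf12, B3galt1 and Shoc2, in 0 of 13 windows of the largest positive differences and in 1 of 10 windows of the largest negative ones. A match is a description of the letters and not a bound site, and no match says only that these letters are not in this window.

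Among C/EBP family genes and the Tribbles pseudokinases, Cebpb was highest and Trib2 lowest in difference. Trib1 and Trib2 are known to direct C/EBPα to degradation. Trib2 was at -2.49, -2.33 and -1.26 in LAP/Blnk tumours, against 0.88, 1.65, 0.42, -0.97 and 0.52 in Blnk tumours (-2.52 ± 0.88, limma adjusted p = 0.626). Trib1 was at -0.23, -0.79 and -0.51 against 1.02, 0.50, 0.69, 0.42 and 0.04 (-1.04 ± 0.24, adjusted p = 0.219). Both separated the groups, and both probe sets of Trib2 did so. Cebpa, the myeloid family member, differed by -0.65 ± 0.31 with overlap, and none of the 7 measured genes passed. The median of the family was -0.38, and -0.0024 without Blnk tumour 5.

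Of 22 measured genes of the pre-B receptor and its signalling, 4 separated the groups upward and 1 downward (18.2% and 4.55%, against 2.67% and 2.69% of all genes), with a median difference of 0.26 and none past the threshold. Vpreb1, part of the surrogate light chain, was at 0.35, 0.30 and 0.22 in LAP/Blnk tumours, against 0.11, -0.45, 0.16, -0.01 and 0.13 in Blnk tumours. Cd79a, the signalling chain of the receptor, was at 0.37, 0.35 and 0.37 against -0.30, 0.01, 0.29, -0.01 and -0.01. Both differences (0.30 and 0.37) were smaller than the range of the Blnk tumours, and the SE of Vpreb1, 2.30, pools the LAP tumours, in which it ran from -8.97 to 0.14. Btk, the kinase downstream of BLNK, differed by 0.27, and Pik3ap1, the PI3-kinase adaptor BCAP, by 1.31 ± 0.45 (limma adjusted p = 0.604). Pik3ap1 lies on chromosome 19. Ighm, the μ heavy chain, was at -0.18, -0.38 and -0.28 against -0.11, 4.80, -0.01, -0.15 and 0.95, with Blnk tumour 2 far above every other in a difference of -1.38.

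Genes of early pro-B cells and of V(D)J recombination had a median difference of 0.05, with 12 of 16 measured. Erg, an ETS factor, was at 1.61, 1.38 and 1.78 against 0.65, -0.37, 1.38, 1.16 and 0.42, with Blnk tumour 3 almost touching the lowest LAP/Blnk tumour. Rag2 overlapped (0.75 ± 1.23). Its SDs were 0.65 within the LAP/Blnk and 0.96 within the Blnk tumours, and its SE also pools the LAP tumours. Among 24 B-lineage transcription factors 3 separated the groups upward and 1 downward (12.5% and 4.17%, against 2.67% and 2.69% of all genes). Runx1 differed by 1.01, the octamer coactivator Pou2af1 by 0.28 and Foxo1, which drives Rag expression, by 0.17. Gfi1, a repressor that restrains myeloid and lymphoid genes, was at -1.26, -0.03 and -0.70 against 0.81, 0.69, 0.31, 1.10 and 0.03 (-1.25 ± 0.55, limma adjusted p = 0.837). Irf8 differed by -1.13 with overlap.

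Of 22 genes of mature B-cell surface and antigen presentation, 17 had a negative difference, with a median of -0.40. The groups were separated downward in 2 of the 22 (9.09% against 2.69% of all genes). Cd22, an inhibitory co-receptor, was at -0.50, -1.72 and -0.65 in LAP/Blnk tumours, against 0.10, 0.37, 0.40, 1.03 and -0.15 in Blnk tumours. H2-DMb2, a peptide exchange factor of MHC class II, was at -2.07, -1.96 and -2.24 against -1.51, 0.82, -1.76, -1.81 and -0.03. Blnk tumours 1, 3 and 4 were thus nearly as low in H2-DMb2. Ms4a1, which encodes CD20, was at -4.69, -4.59 and -4.49 in LAP/Blnk tumours, against -4.69, 1.21, -1.21, -3.05 and 1.28 in Blnk tumours. Its difference of -3.30 ± 1.80 was large, the groups overlapped through Blnk tumour 1, and it did not pass (limma adjusted p = 0.940). Without Blnk tumour 5 the median of the list was -0.16.

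No cell-cycle gene passed the test. Of 24 mitosis genes 22 had a positive difference, with a median of 0.22, and 3 separated the groups upward (12.5% against 2.67% of all genes). These were the kinesins Kif11 (0.87) and Kif20b (0.91) and the midbody protein Cep55 (1.12), and all 3 lie on chromosome 19. Without the genes of that chromosome the median was 0.20, and 0 members separated the groups. Of 26 DNA replication genes 20 had a positive difference, with a median of 0.06. Fen1, Pola1, Mcm5 and Gins3 separated the groups by 0.70, 0.42, 0.29 and 0.23 (15.4% of the list against 2.67% of all genes). Fen1, the flap endonuclease, is on chromosome 19 as well. Blnk tumour 5 had the lowest median of both lists, at -0.13 and -0.44. Without it the median of the mitosis list was 0.16 and that of the replication list -0.04, with 15 of 26 replication genes negative.

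The D-type cyclins start the cycle with CDK4 and CDK6. Among them, Ccnd3 and Ccnd2 had differences of opposite sign, and Ccnd1, also measured, is not described. Values are from 1 of 2 probe sets of Ccnd3 and 1 of 6 of Ccnd2, and the others are not given. Ccnd3 was at 1.53, 1.13 and 1.02 in LAP/Blnk tumours, against -1.15, -0.57, 0.81, 0.46 and 0.07 in Blnk tumours (1.30 ± 0.55). Ccnd2 was at -2.41, -2.75 and -2.94 against -1.79, -1.83, -2.73, 0.14 and 2.00 (-1.86 ± 0.94). Ccnd3 separated the groups and Ccnd2 did not, and neither passed (limma adjusted p = 0.812 and 0.917). Of 26 MYC and ribosome biogenesis genes 20 had a negative difference, with a median of -0.23. Nucleolin (Ncl, -0.37) separated the groups, 3.85% of the list against 2.69% of all genes. Klf2, a quiescence factor and immediate early gene, was at -0.89, -1.87 and -1.74 against -0.64, -0.10, -0.61, 0.10 and 0.57. Sterol synthesis genes had a median of 0.14, and 0.05 without Blnk tumour 5, with the demethylase Cyp51 (0.66) and the sterol carrier Stard4 (0.42) separated. In the NF-κB and amino-acid stress lists Rela (0.61) and the serine synthesis gene Psat1 (0.75) were separated, and both lie on chromosome 19. The p53 response and BCL2 family lists, with 18 and 16 genes measured, held no member that separated the groups.

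**Figure D3:**
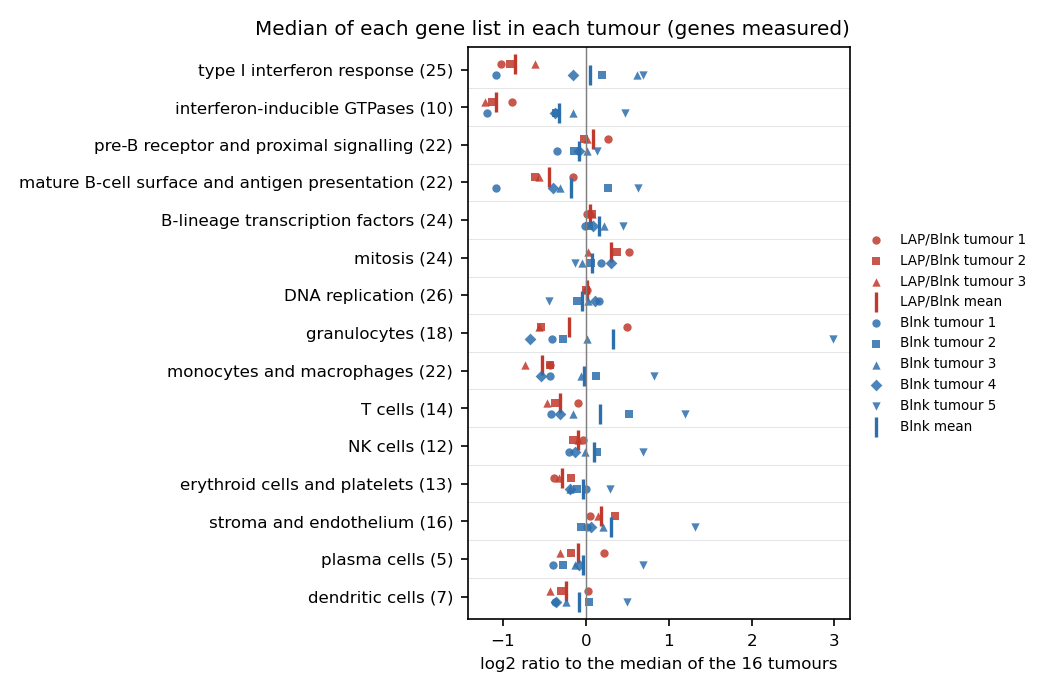
Median log2 ratio to the median of the 16 tumours (x axis) over the measured members of 15 gene lists (y axis, number of genes in brackets), one symbol per LAP/Blnk (red) or Blnk (blue) tumour and a vertical bar for each group's mean. Blnk tumour 5 (blue triangles pointing down) is the highest tumour in all 8 lists of other cell types, up to 2.98 in granulocyte genes.

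Blnk tumour 5 was high in markers of other cells. In it the list medians were 2.98 for granulocytes, 1.32 for stroma and endothelium, 1.19 for T cells, 0.82 for monocytes and macrophages and 0.69 for NK cells. Granulocyte medians were 0.50, -0.54 and -0.57 in the LAP/Blnk group and lay between -0.67 and 0.01 in Blnk tumours 1 to 4. The median difference of that list was -0.50, with 17 of 18 genes negative. Without Blnk tumour 5 it was 0.12, with 6 of 18 negative. Chil3, a granulocyte and macrophage chitinase-like gene, was at 1.85 in LAP/Blnk tumour 1 and at -3.63 and -3.90 in the other LAP/Blnk tumours. LAP/Blnk tumour 1 was thus the one with more granulocyte signal in its group.

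Of 22 monocyte and macrophage genes 20 had a negative difference, and the complement gene C1qc was the one that separated the groups (-1.10, -0.67 and -0.81 against -0.45, 0.52, -0.10, -0.54 and 0.83). Of 14 T-cell genes 12 were negative, and Cd3e separated the groups by -0.31. C1qc and Cd3e were 4.55% and 7.14% of their lists, against 2.69% of all genes. Of 12 NK genes 10 were negative, but Klrb1c, the NK1.1 receptor gene, was at 3.19, 3.59 and 2.28 in LAP/Blnk tumours, against 0.36, -0.15, 3.88, 0.99 and 1.09 in Blnk tumours. Blnk tumour 3 was the highest of all in Klrb1c, and without it the gene passed (2.44, limma adjusted p = 0.0308). Only that tumour overlapped the LAP/Blnk group, so the pass rests on leaving it out. In BKO408 cells Klrb1c was lower with LAP (-0.40 ± 0.08 (SE), limma adjusted p = 0.00498). Without Blnk tumour 5 the median differences were -0.33 for monocytes and macrophages (18 of 22 negative), -0.21 for T cells (11 of 14) and -0.09 for NK cells (8 of 12), against -0.60, -0.42 and -0.18 with it. The erythroid genes Klf1 (-0.30) and Car1 (-0.16) were separated by small steps. Centred values hold no level, so whether the defining markers of a cell type were near 0 could not be read, and the part of other cells in the differences was not tested.

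A larger share of genes separated the groups on chromosome 19 than on any other chromosome. Of its 568 genes 155 lay higher in every LAP/Blnk tumour (27.3%) and 8 lower (1.41%). On the other chromosomes and unplaced genes together, the shares were 1.83% and 2.73%. The median of the chromosome, less that of all other autosomes in the tumour, was 0.22, 0.22 and 0.37 in LAP/Blnk tumours, against 0.05, -0.08, 0.06, 0.07 and -0.06 in Blnk tumours. The difference was 0.26 (exact permutation p = 0.0179, the smallest possible, and 0.357 adjusted over 20 chromosomes). It was seen in 3 of 3 LAP/Blnk tumours, and the adjusted value did not pass. Chromosome 19 was singled out with earlier results of these same tumours known, so the test is a description and adds no support.

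**Figure D4:**
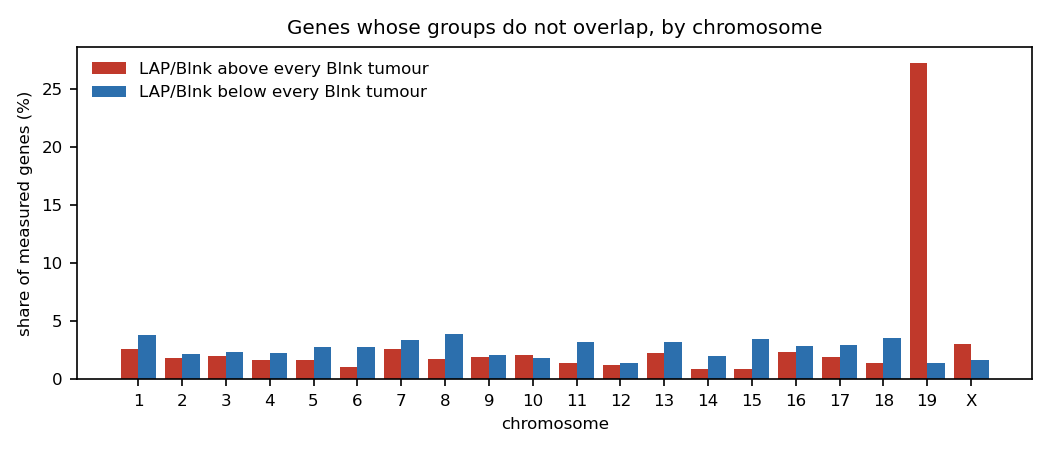
Share of the measured genes of each chromosome (y axis, percent, from 0) whose value in every LAP/Blnk tumour was above (red) or below (blue) that in every Blnk tumour. Chromosome 19 stands at 27.3% for higher genes, and the other chromosomes shown lie between 0.839% and 3.02%.

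The shift was uneven along the chromosome. Its genes were put in order and divided into 8 stretches of 71 genes each. The median difference was 0.45, 0.51 and 0.31 in the first 3 stretches, -0.03 in the fourth, and 0.11, 0.17, 0.25 and 0.15 in the last 4. The share of genes higher in every LAP/Blnk tumour was 39.4%, 46.5% and 26.8% in the first 3 stretches and 16.9% in the fourth. In the last 4 stretches it was 21.1%, 18.3%, 22.5% and 26.8%. Each LAP/Blnk tumour was above each Blnk tumour in all stretches but the fourth and the fifth. In the first 3, LAP/Blnk medians ran from 0.26 to 0.51 and Blnk medians from -0.18 to 0.17. The sixth separated the groups by little, with 0.153 in the lowest LAP/Blnk and 0.150 in the highest Blnk tumour. In the fourth, LAP/Blnk tumours lay at 0.06, -0.01 and -0.03 and Blnk tumours between -0.02 and 0.08, so the groups overlapped.

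**Figure D5:**
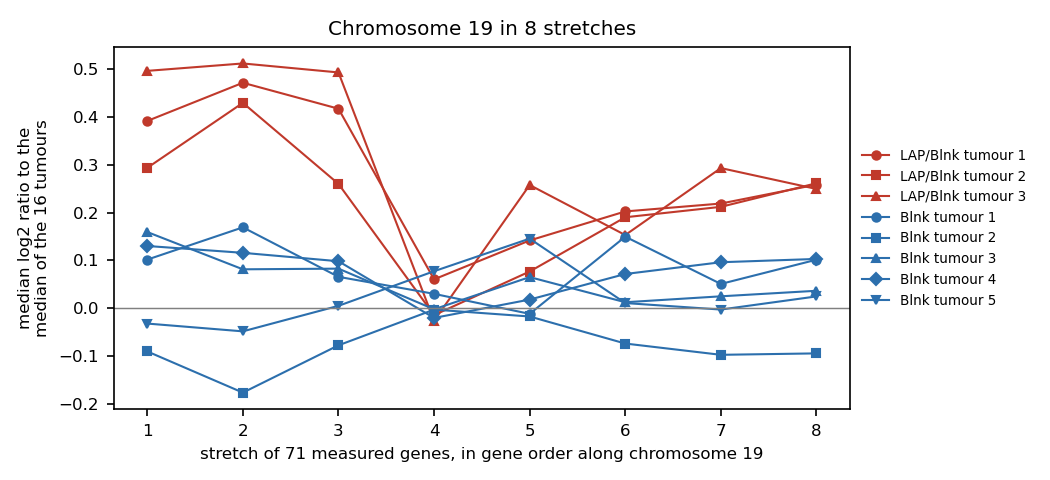
Median log2 ratio to the median of the 16 tumours (y axis) in 8 stretches of 71 measured genes in order along chromosome 19 (x axis), one line per LAP/Blnk (red) or Blnk (blue) tumour. The red lines start between 0.29 and 0.50, meet the blue lines in the fourth stretch and lie between 0.25 and 0.26 in the eighth.

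Of the genes named above, Shoc2, Mirt1, Ccdc186 and Sfxn4 lie in the eighth stretch, Blnk, Pik3ap1, Cep55 and Kif11 in the sixth, and Ms4a1 and Psat1 in the fourth. Jak2, the kinase of cytokine and interferon-γ receptors, is in the fifth (0.70, overlapping), and Rela, Slc25a45 and the pro-apoptotic Bad (0.69, overlapping) are in the second. Ms4a1 differed against the direction of its chromosome.

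The effect of LAP in BKO408 cells, also from a Blnk knockout mouse, was set beside the tumours as a separate set of arrays. LAP changed 3820 of 17097 genes there (22.3%, limma adjusted p under 0.05). The Cebpb probe set with the widest spread, which separated the tumours, differed by only 0.15 ± 0.06 (SE) in the cells. Its arrays overlapped there (limma adjusted p = 0.0855), so the label check of the tumours does not carry over to the cells. Of the 21 genes that passed or had the largest differences in tumours, 6 changed in the cells (28.6%), a share near that background. Trib2 (-0.82), Abca9 (0.79), Gas7 (0.25) and Plac8 (-0.10) had the direction of the tumours, and Ptpn22 (0.29) and Mirt1 (-0.27) the opposite one. Fgf12, B3galt1 and Shoc2 had differences of 0.03, -0.03 and 0.01 in the cells. Of the 25 type I interferon genes 8 fell and none rose in the cells, with a median of -0.06, and of the 10 GTPases 9 fell, with a median of -0.29. Ifi47 was among them (-0.35), as was Tgtp1 (-0.91), which overlapped in the tumours. Differences in cells and tumours have separate baselines, and no test of the difference between them was made.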

How the data were processed

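Arrays of 24 samples were analysed, 8 of them compared here. Biotinylated cRNA was hybridised to Affymetrix arrays, per the labels, and the submitters' processing notes name MAS5 alone. The deposited log2 values (base taken as 2) are centred per probe set on the median of the 16 tumours and, separately, of the 8 cell-line arrays. The sources used here do not give scaling, genome build or array dates. Of 45141 probe sets, 28898 held a single gene symbol, 551 several and 15692 none in the platform annotation, and 28689 matched GRCm38.p6, used for names, chromosomes and gene order. For each of 17097 genes, the probe set that varied most around the cell-line and tumour means, groups ignored, was kept (7180 genes had more than 1).

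limma 3.58.1 under R 4.3.3 tested the groups (lmFit, eBayes without a trend, all 16 tumours in a fit, two-sided, Benjamini-Hochberg over all genes, threshold 0.05), after the procedure was tested on simulated data. SE is that of the moderated test. A fold is 2 to the power of the difference. Single probe sets and chromosome medians were compared with exact permutation tests over 56 orderings. Genes past the threshold were open to naming. So were the 10 largest differences in each direction among genes with an unadjusted p under 0.05 and groups that did not overlap. Unnamed transcripts and rearranged receptor segments were left out of these. Members of 31 lists (497 of 571 genes measured) were added if they did not overlap or were among the 4 largest of their list. The 3 genes most like each called gene were added too. Likeness aside, these rules gave 156 genes, and not all are described. Which list members with overlapping groups are described was a choice. Neighbours and Bad were named after their values were seen. Members, lists and chromosome 19 were chosen with earlier results of these data known. Of the list genes without overlap, Car9 (0.27) of the glycolysis and hypoxia list is not described further. No columns were identical. Same-numbered tumours of both groups correlated by 0.02, -0.12 and 0.38 in their deviations from the group means, so the numbers were not taken as pairs. Alternatives covered the samples and weights in the fit, normalisation, the probe set, a filter, chromosome 19, the replicate block and each tumour left out.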

Additional observations from a re-analysis of the deposited data

Results flagged for a closer look

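A sample far from the rest of the Blnk tumours was found in 10 of 117 groups of 5 checked, where independent normal values give about 1 in 20. The 117 groups come from the same 5 tumours and from related genes and lists. The count is therefore no measure of an excess over chance. Blnk tumour 5 was the highest in Abca9 (1.53), in the median of the FGF list (0.24), of granulocytes (2.98), of stroma and endothelium (1.32) and of plasma cells (0.69), and the lowest in Prnd (-0.22). Blnk tumour 2 was the lowest in Vpreb1 (-0.45) and Atp13a4 (-0.22), the neighbour of Atp13a5, and the highest in Ighm (4.80). Blnk tumour 1 was the lowest in Ptpn22 (-1.78).

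Of 83 named genes, 69 separated the tumour groups, a trait for which many of them were named. In 15 of these the LAP arrays of BKO408 cells were also apart from every control array, in the opposite direction, and in 7 in the same direction (Abca9, Plac8, Trib2, Isg20, Ifi47, Pik3ap1 and Cd22). The share of all genes whose cell arrays were apart was not counted. By limma 22.3% of all genes changed in the cells (adjusted p under 0.05). The difference between tumours and cells was not tested, so 15 and 7 describe these picked genes only. In the tumours Mirt1 (2.04), Ccnd3 (1.30), Cep55 (1.12), Slc25a45 (0.76), Psat1 (0.75), Fen1 (0.70), Cyp51 (0.66), Stard4 (0.42), Mcm5 (0.29), Pou2af1 (0.28) and Gins3 (0.23) lay higher and were lower with LAP in the cells. Ptpn22 (-2.26), Klf2 (-1.36), Gfi1 (-1.25) and Ncl (-0.37) lay lower in the tumours and were higher with LAP in the cells.

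Probe sets without a gene symbol entered no comparison by gene. In a fit of all probe sets 7 of them passed, all higher in LAP/Blnk tumours: 1446799_PM_at by 3.33, 1440012_PM_at by 1.87, 1441509_PM_at by 1.17, 1442320_PM_at by 0.92, 1456679_PM_at by 0.69, 1460152_PM_at by 0.68 and 1456134_PM_x_at by 0.64.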

How the results depend on the processing

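The count of 3 changed genes was 3 with only the LAP/Blnk and Blnk tumours in the fit or the more variable genes (Robo3 in place of Shoc2), and 2 with a variance trend, the mean of probe sets or without the genes of chromosome 19. It was 33 with array weights (27 higher), 29 with quantile normalisation (27 higher), and, in settings chosen after seeing the data, 5 without LAP B-ALL 4 and 16 with all probe sets. Leaving out each tumour in turn gave 2 to 13, the latter without LAP/Blnk tumour 3, and 8 without LAP/Blnk tumour 1. With the replicate number as a block no gene passed in limma, with all tumours (0, and 1321 genes at an unadjusted p under 0.05) or with tumours 1 to 3 of both groups (0, and 1753). Fgf12 was then at 3.44 and 3.54, B3galt1 at 2.13 and 2.18 and Shoc2 at 0.92 and 0.99, and 1 of 3 tumours correlated best with its own number. Robo3 passed in the 4 settings of array weights, quantile normalisation, more variable genes and the LAP/Blnk and Blnk tumours alone, and Cebpb with array weights (3.77) or without LAP B-ALL 4. Shoc2 lost its call in 12 alternatives, with differences from 0.68 to 0.99.

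The 917 genes without overlap became 604 among the more variable genes, 2291 over all probe sets and 1114 to 1928 without each tumour in turn. The shift of chromosome 19 was 0.57 over the more variable genes and 0.21 to 0.29 without each tumour in turn. Of 1404 alternative values of 83 named genes, 0 changed direction. In 69 of these genes the groups did not overlap, so leaving out a tumour could not reverse them. Settings such as a variance trend leave the difference itself unchanged. The count of 0 is therefore no measure of robustness. Without each array in turn 3080 to 3515 genes changed in BKO408 cells. The causes of these changes were not tested.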
